A study of Danio rerio with 2 samples.

Results

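The genes described here are the EGF family ligands and ErbB receptors of the early zebrafish embryo, with hbegfa, one of the fish genes for heparin-binding EGF-like growth factor, at the centre. They were found by name: a row of the deposited table belonged to them if its gene column, without a trailing copy number, read hbegfa, hbegfb, egf, egfr, egfra, erbb2, erbb3a, erbb3b, erbb4a, erbb4b, tgfa, btc or ereg. This took 14 of 32571 rows, 5 of them ligands and 9 of them receptors. No row was named ereg. hbegfa was chosen by its measured FPKM in the same comparison, a large rise from mock to Dcp2-DN, so its values below are a description, and the other members were listed with earlier results of the same table known.

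Whole zebrafish embryos of the AB strain were collected at 6 hpf (hours post fertilization), when gastrulation begins. The mock group was mock-injected and served as control, and the Dcp2-DN group was injected with Dcp2-DN, which the series title ties to inhibition of Dcp2, the enzyme that removes the cap from an mRNA before it is degraded. Each RNA preparation pooled 40 to 50 embryos, libraries were made from total RNA depleted of ribosomal RNA, and the design text speaks of triplicates. The labels, however, list 1 sample entry per group. The deposited table held 1 FPKM value (fragments per kilobase of transcript, relative to all mapped fragments) per gene and group, so no SD or n can be given, the depth is unknown, and the spread between replicates enters at most through the authors' own test. How many libraries entered that test was not given in the sources used here. A gene is called below where the authors' deposited table marks it as significant, which requires a tested row with a q-value under 0.05. In pooled whole embryos, more RNA per cell and more cells that make a transcript cannot be told apart.

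EGF family ligands are made as membrane-spanning precursors whose extracellular EGF-like domain is released by ADAM metalloproteases. The freed or membrane-bound ligand joins ErbB receptors into pairs at the cell surface, and the paired receptor tyrosine kinases signal through adaptors to RAS and the RAF-MEK-ERK kinases. In mammals HB-EGF, TGF-alpha, betacellulin and EGF bind the EGF receptor, and HB-EGF and betacellulin also bind ErbB4. ErbB2 binds no ligand of its own and acts as the preferred partner of the others, and ErbB3, a receptor for neuregulins, has little kinase activity and signals through its partner.

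The transcripts of 4 of the 5 ligands were called higher in Dcp2-DN embryos and the remaining ligand, egf, had no test, whereas the calls among the receptors went in different directions. Of the 14 members, 10 had a test in the authors' deposited table, with a rise called for 5 and a fall for 1. Without hbegfa, which was chosen for its rise, 9 members had a test, with 4 rises and 1 fall called. Rises made up 20.6% and falls 4.35% of all tests in the authors' deposited table. The calls were not spread evenly over the roles: a rise was called for 4 of 4 tested ligands, and for 6 tested receptors the authors' deposited table holds 1 rise and 1 fall. Leaving out hbegfa, which was chosen for its rise, a rise was called for 3 of 3 tested ligands in the authors' deposited table. The difference between ligands and receptors was itself not tested. Genes of low level seldom had a test, so a gene low in mock could be tested through its Dcp2-DN level. The 50 tested genes with a mean under 1 FPKM had a median log2 ratio of 1.11. Among the called rises, btc and erbb3b were at 0.746 and 0.785 FPKM in mock, so the counts of tested members carry this limit. The name rule leaves out the neuregulins, which are also ligands of ErbB receptors. By the authors' deposited table, nrg2a was called higher (q = 0.00749) and nrg1 was not called (q = 0.555).

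The counts were also taken under other call rules, of which the unadjusted p is looser than the main one. At an unadjusted p under 0.05 the members held 6 rises, erbb4b added, and 1 fall, beside 27.5% and 8.22% of all tested genes in the authors' deposited table. At q under 0.01 there were 4 rises, the tested ligands with hbegfa among them, and 1 fall, beside 13.5% and 1.55%. With a minimum of 1.5-fold added to each call there were 5 rises and 0 falls, beside 11.9% and 0.885%. The rises under each of these rules include hbegfa, which was chosen for its rise.

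**Figure D1:**
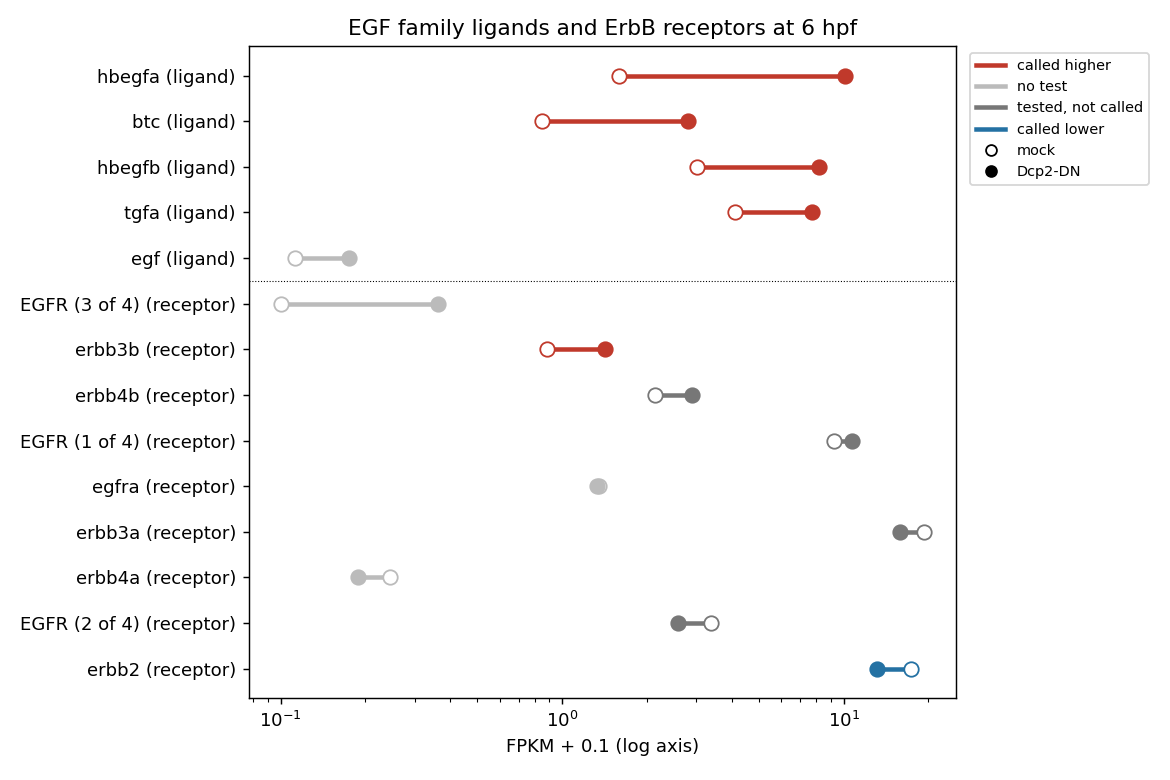
FPKM of each member in mock (open circles) and Dcp2-DN embryos (filled circles), with 0.1 added and on a log axis; colours give the call in the authors' deposited table and the dotted line separates ligands from receptors. The 4 tested ligands move to the right, from 0.746 to 4.03 FPKM in mock to 2.70 to 10.03 FPKM in Dcp2-DN embryos, while erbb3a and erbb2, the receptors with the highest levels, move to the left; EGFR (3 of 4) is listed at 0 in mock.

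hbegfa (ENSDARG00000075121, chromosome 14, 7015234 to 7018245, Zv9 locus span as the deposited table gives it) encodes heparin-binding EGF-like growth factor a. It was at 1.49 FPKM in mock against 10.03 FPKM in Dcp2-DN embryos. The Dcp2-DN value was 6.74 times that of mock, and with 0.1 FPKM added to both the log2 ratio was 2.67. Its p-value in the authors' deposited table was 5e-05 and its q-value 0.000593, the lowest in the table and shared by 1249 rows. Of the 14810 tested genes, 25 had a higher log2 ratio than hbegfa, and 5 of these carried a call in the authors' deposited table.

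Its paralogue hbegfb (ENSDARG00000031246, chromosome 21, 28905355 to 28913008) also encodes a heparin-binding EGF-like growth factor. It was at 2.91 FPKM in mock against 8.10 FPKM in Dcp2-DN embryos, a 2.79-fold difference and a log2 ratio of 1.45. The authors' deposited table gave hbegfb p = 5e-05 and q = 0.000593 and called it higher. These genes lie on different chromosomes, and neither shared its locus with another gene in the table. hbegfa stood at 0.512 times the FPKM of hbegfb in mock and at 1.24 times in Dcp2-DN embryos. Which of the HB-EGF genes had the higher level therefore differed between the groups, a difference that was not tested and that has no replicate spread to be set against.

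btc (ENSDARG00000063625, chromosome 21, 18183886 to 18209167) encodes betacellulin by its deposited name. The name table used here does not list its gene ID. It was at 0.746 FPKM in mock against 2.70 FPKM in Dcp2-DN embryos, a 3.62-fold difference and a log2 ratio of 1.73. The authors' deposited table called it higher with p = 0.00035 and q = 0.00311. Its mock value was the lowest among the tested ligands.

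tgfa (ENSDARG00000053939, chromosome 6, 40923272 to 40940245) encodes transforming growth factor alpha, an EGF receptor ligand in spite of its name. It was at 4.03 FPKM in mock against 7.61 FPKM in Dcp2-DN embryos, a 1.89-fold difference and a log2 ratio of 0.90. The authors' deposited table called tgfa higher with p = 0.00045 and q = 0.00380. Among the ligands of the name rule it was the most abundant in mock, and it had the smallest ratio of those tested. The neuregulin gene nrg1, outside the rule, was at 7.49 FPKM in mock.

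egf (ENSDARG00000052739, chromosome 14), which encodes epidermal growth factor itself, was near the bottom of the scale in both groups. It was at 0.0122 FPKM in mock against 0.0746 FPKM in Dcp2-DN embryos and had no test in the authors' deposited table. At these levels no direction is read from the difference.

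In mock embryos the order of the ligands by FPKM was tgfa, hbegfb, hbegfa, btc and egf. In Dcp2-DN embryos hbegfa came first, followed by hbegfb, tgfa, btc and egf. No spread within a group is available to say which neighbours in these orders differ. The closest neighbours were hbegfb and tgfa in Dcp2-DN embryos, with a ratio of 1.06. FPKM is scaled by transcript length, so the ligand values can be added. The ligands of the name rule, without neuregulins, summed to 9.18 FPKM in mock against 28.5 FPKM in Dcp2-DN embryos, 3.11 times as much. Both sums include hbegfa, which was chosen for its rise, so their ratio is a description. hbegfa made up 16.2% of the ligand sum in mock and 35.2% in Dcp2-DN embryos, while tgfa made up 43.9% and 26.7%.

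**Figure D2:**
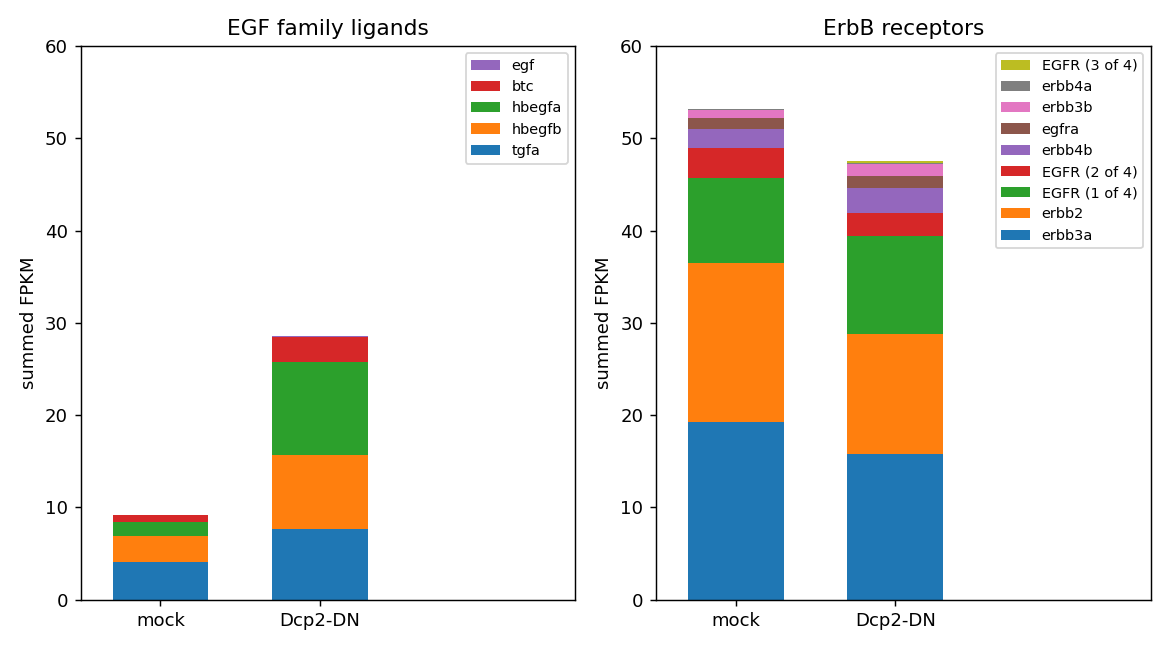
Summed FPKM of the name rule's ligands (left) and receptors (right) in both groups, stacked by gene, on the same linear scale from 0. Neuregulins are not in the ligand sum, and the rows ERBB4 (2 of 4) and ERBB4 (4 of 4) are not in the receptor sum. The ligand sum includes hbegfa, which was chosen for its rise. The ligand sum is 9.18 FPKM in mock against 28.5 FPKM in Dcp2-DN embryos, and the receptor sum is 53.2 and 47.6 FPKM.

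Among the receptors, erbb2 (ENSDARG00000026294, chromosome 12, 10108665 to 10192429), the partner receptor without a ligand of its own, was the one called lower. It was at 17.3 FPKM in mock against 13.0 FPKM in Dcp2-DN embryos, a Dcp2-DN level 0.751 times that of mock, with a log2 ratio of -0.41. The authors' deposited table gave erbb2 p = 0.0002 and q = 0.00195. Its locus was shared with 1 other row, a 5S ribosomal RNA model listed at 0 in both groups. The fall was smaller than 1.5-fold.

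erbb3b (ENSDARG00000036993, chromosome 23, 25519749 to 25575005), one of the pair of fish ErbB3 genes, was the receptor called higher. It was at 0.785 FPKM in mock against 1.32 FPKM in Dcp2-DN embryos, a 1.68-fold difference and a log2 ratio of 0.68. The authors' deposited table gave erbb3b p = 0.00195 and q = 0.0121. Its paralogue erbb3a (ENSDARG00000006202, chromosome 6), the receptor with the highest level in both groups, was at 19.2 FPKM in mock against 15.8 FPKM in Dcp2-DN embryos. erbb3a was not called in the authors' deposited table (q = 0.523). Its level was 24.5 times that of erbb3b in mock and 11.9 times in Dcp2-DN embryos, so the ErbB3 transcript that was called contributed little to the total.

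egfra (ENSDARG00000013847, chromosome 2), the zebrafish EGF receptor gene, was at 1.25 FPKM in mock against 1.23 FPKM in Dcp2-DN embryos and had no test in the authors' deposited table. A further 3 rows carried the name EGFR with a copy number, and the name table used here lists none of their gene IDs, so which genes they stand for is uncertain. EGFR (1 of 4), on chromosome 24, was at 9.15 FPKM in mock against 10.6 FPKM in Dcp2-DN embryos and was not called in the authors' deposited table (q = 0.496). EGFR (2 of 4), at a chromosome 24 locus shared with 6 other rows, was at 3.28 and 2.48 FPKM and was likewise not called in the authors' deposited table (q = 0.562). The locus of EGFR (1 of 4) spanned 34727817 to 34732997 and that of EGFR (2 of 4) 34784369 to 35042769. Whether these neighbouring rows belong to the same gene was not tested, and they are counted here as separate receptors. EGFR (3 of 4), on an unplaced scaffold, was listed at 0 in mock and at 0.261 FPKM in Dcp2-DN embryos, without a test.

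The ErbB4 genes, which in mammals encode a receptor for both neuregulins and HB-EGF, were low and without a call. erbb4b (ENSDARG00000061142, chromosome 9) was at 2.04 FPKM in mock against 2.80 FPKM in Dcp2-DN embryos, with p = 0.0476 and q = 0.135 in the authors' deposited table. erbb4a (chromosome 1) was at 0.145 and 0.0889 FPKM and had no test. Another pair of chromosome 1 models, outside the name rule and looked up after the members' values were seen, carried the ERBB4 name. ERBB4 (2 of 4) was at 1.4 and 1.44 FPKM and ERBB4 (4 of 4) at 1.39 and 1.65 FPKM, neither called in the authors' deposited table.

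By FPKM, erbb3a led the receptors in both groups, followed by erbb2 and then EGFR (1 of 4). The receptor values summed to 53.2 FPKM in mock against 47.6 FPKM in Dcp2-DN embryos, a ratio of 0.894. The receptor sum was 5.79 times the ligand sum in mock and 1.67 times in Dcp2-DN embryos. Because hbegfa, chosen for its rise, is part of the ligand sum, the change between these ratios is a description. The ligand sum follows the name rule and leaves out the neuregulins. Their rows summed to 9.53 FPKM in mock against 10.04 FPKM in Dcp2-DN embryos. AREGB, at 1.0 and 1.58 FPKM, is left out as well. The receptor sum follows the same rule and leaves out ERBB4 (2 of 4), at 1.4 and 1.44 FPKM, and ERBB4 (4 of 4), at 1.39 and 1.65 FPKM. These sums rest on 1 value per gene and group and were not tested.

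The median log2 ratio of all tested genes was 0.12, so a gene in the middle of the table was itself slightly higher in Dcp2-DN embryos. The tested ligands had a median of 1.59, or 1.45 without hbegfa, which was chosen on this ratio, and the tested receptors one of -0.036. Among the tested genes, 99.8% had a lower log2 ratio than hbegfa, 99.5% a lower one than btc, 99.03% than hbegfb and 94.5% than tgfa. At the other end, 5.50% had a lower log2 ratio than erbb2 and 10.4% than erbb3a.

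**Figure D3:**
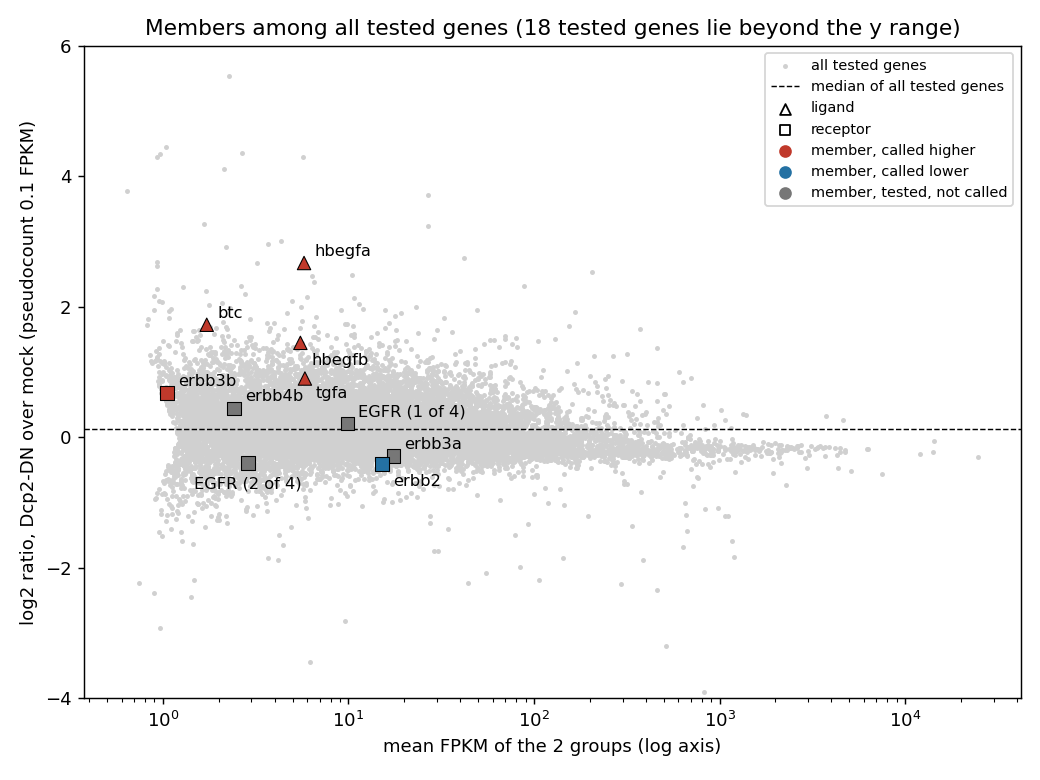
Log2 ratio of Dcp2-DN over mock (pseudocount 0.1 FPKM) against the mean FPKM of both groups (log axis) for all 14810 tested genes in grey, with the tested ligands as triangles and the tested receptors as squares, and the median of 0.12 as a dashed line; 18 tested genes lie beyond the y range of -4 to 6. The 4 ligands lie between 0.90 and 2.67, all above the receptors, which lie between -0.41 and 0.68.

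The share of called genes varied with the level of a gene and differed less with the span of its locus. The tested members had means of 1.05 to 17.5 FPKM. Among the 9137 tested genes with a mean of 1 to 20 FPKM, calls in the authors' deposited table were rises for 21.9% and falls for 2.87%. In the bin of 5 to 10 FPKM, which holds hbegfa, hbegfb, tgfa and EGFR (1 of 4), 25.8% had a rise called in the authors' deposited table. In that of 1 to 2 FPKM, which holds btc and erbb3b, 10% had. The bin of 10 to 20 FPKM, with erbb2 and erbb3a, held 29.3% called rises and 3.11% called falls. That of 2 to 5 FPKM, with erbb4b and EGFR (2 of 4), held 17.5% and 2.89%. The loci of the tested ligands spanned 3011 to 25281 bases and those of the tested receptors 5180 to 258400 bases. Of tested genes with a locus of their own, a rise was called in the authors' deposited table for 22.2% where it spanned under 30000 bases and 24.1% where it spanned 50000 to 300000.

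The genes most like hbegfa in their values over the 2 groups, by distance on the log2(FPKM + 0.1) scale among called genes with a symbol, were mbnl1, gbgt1l1 and si:ch211-130h14.4. mbnl1, a muscleblind regulator of splicing, was at 1.87 FPKM in mock against 10.8 FPKM in Dcp2-DN embryos (distance 0.330). gbgt1l1, named for a glycosyltransferase, was at 1.84 and 8.12 FPKM (distance 0.417), and si:ch211-130h14.4 was at 2.05 and 11.1 FPKM (distance 0.458). With 1 value in each of 2 groups, this likeness covers level and ratio alone.

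Genes on either side of the receptors were drawn from 6 lists: other ligands, shedding proteases and HB-EGF partners, adaptors and RAS, the RAF-MEK-ERK kinases, immediate-early and ERK target genes, and feedback regulators. Of 89 tested genes on these lists, 18 (20.2%) had a rise and 1 a fall called in the authors' deposited table, beside 20.6% and 4.35% of all tested genes. The share called higher was thus near the background, and the tested genes of the lists together had a median log2 ratio of 0.19.

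**Figure D4:**
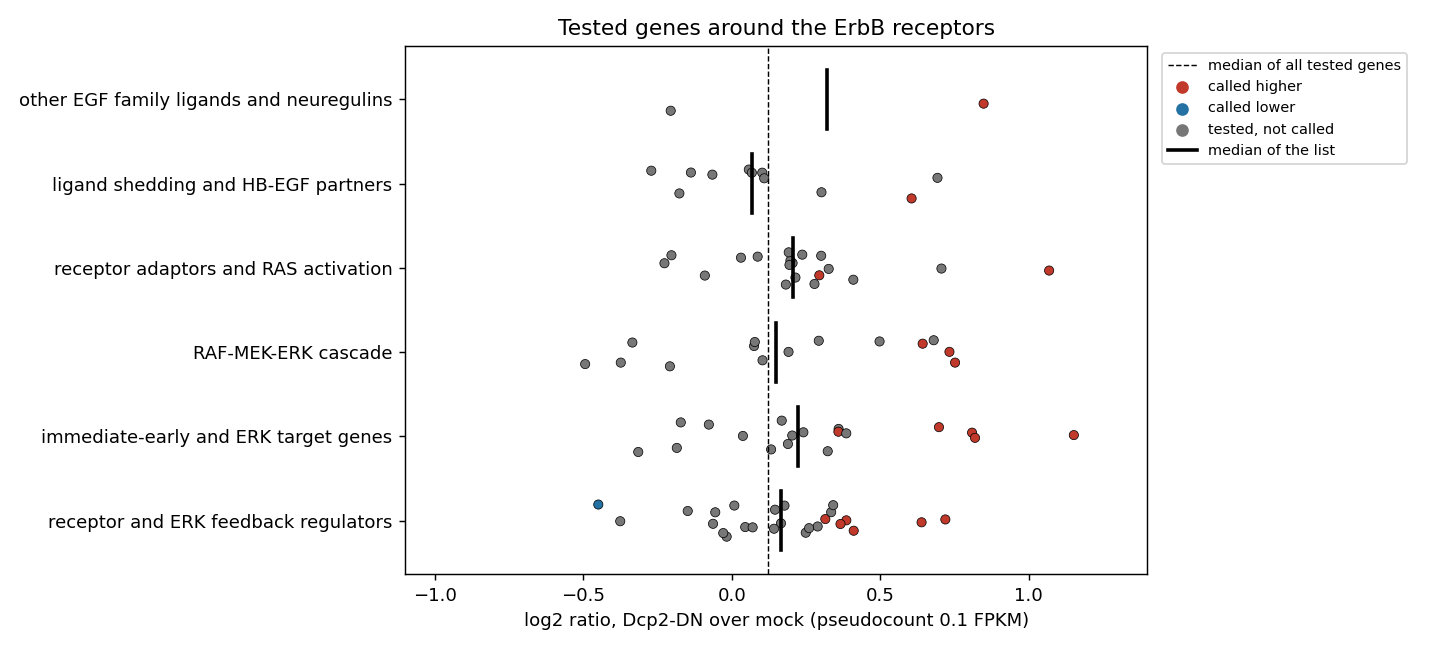
Log2 ratio of Dcp2-DN over mock (pseudocount 0.1 FPKM) of each tested gene on the 6 lists, one point per gene, spread vertically for legibility and coloured by the call in the authors' deposited table, with each list's median as a bar and the median of all tested genes, 0.12, as a dashed line. Medians lie between 0.067 and 0.32, and the one gene called lower, LRIG3, stands among the feedback regulators.

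Among other ligands, the neuregulin gene nrg2a, whose product binds ErbB3 and ErbB4 in mammals, rose from 1.70 to 3.13 FPKM, 1.85-fold, with q = 0.00749 in the authors' deposited table. nrg1, the neuregulin of Schwann cell development, was not called in the authors' deposited table, at 7.49 FPKM in mock against 6.48 FPKM in Dcp2-DN embryos. The loci of nrg2a and nrg1 were each shared with 1 other row. NRG3 had no test, at 0.272 and 0.350 FPKM, and nrg2b none either, at 0.0754 and 0.0749 FPKM. The row AREGB, named for amphiregulin and looked up after the members' values were seen, had no test, at 1.0 and 1.58 FPKM.

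Of 11 tested genes that release or accompany HB-EGF, 1 had a rise and 0 a fall called in the authors' deposited table. Calls among all tested genes were 20.6% rises and 4.35% falls. An unadjusted p under 0.05 in the authors' deposited table gave 3 rises and 0 falls, beside 27.5% and 8.22% of all tested genes. The list's median log2 ratio was 0.067. The call was ADAM12, a metalloprotease that sheds HB-EGF in mammalian cells, from 1.10 to 1.72 FPKM (1.57-fold, q = 0.0404 in the authors' deposited table, locus shared with 1 other row). adam17a and adam17b, genes for the main sheddase of HB-EGF and TGF-alpha in mammals, were not called in the authors' deposited table, the former at 17.1 and 16.3 FPKM and the latter at 2.86 and 3.0 FPKM. adam10a, for the sheddase of EGF and betacellulin, was at 64.1 and 56.7 FPKM without a call in the authors' deposited table. cd9b, for a tetraspanin that binds the HB-EGF precursor in mammals, was the most abundant of the list, at 119 and 129 FPKM, and was not called in the authors' deposited table.

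Among the adaptors and RAS genes, 2 of 19 had a rise and 0 a fall called in the authors' deposited table (4 and 0 at an unadjusted p under 0.05), with a median log2 ratio of 0.20. The share called higher was 10.5%, beside 20.6% of all tested genes, of which 4.35% were called lower. At the unadjusted p, 27.5% of all tested genes rose and 8.22% fell. The SH2/SH3 adaptor gene nck1a rose from 1.03 to 2.27 FPKM (2.2-fold, q = 0.0425 in the authors' deposited table), and the RAS gene nras from 63.9 to 78.4 FPKM (1.23-fold, q = 0.0225 in the authors' deposited table). The adaptor genes crk, at 106 and 108 FPKM, and grb2b, at 58.2 and 61.8 FPKM, were not called in the authors' deposited table.

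In the RAF-MEK-ERK cascade, 3 of 14 tested genes had a rise and 0 a fall called in the authors' deposited table (4 and 1 at an unadjusted p under 0.05), with a median log2 ratio of 0.15. The share called higher, 21.4%, was near the 20.6% of all tested genes, of which 4.35% were called lower. At the unadjusted p, 27.5% of all tested genes rose and 8.22% fell. The RAF kinase gene braf rose from 3.58 to 6.02 FPKM (1.68-fold) and rps6ka3b, for a ribosomal S6 kinase activated by ERK, from 4.52 to 7.68 FPKM (1.7-fold), both with q = 0.000593 in the authors' deposited table. mapk3, which encodes ERK1, was at 71.2 FPKM in mock against 61.6 FPKM in Dcp2-DN embryos, and rps6ka3a was at 58.2 and 61.3 FPKM. Neither was called in the authors' deposited table.

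Immediate-early and ERK target genes held 5 called rises among 18 tested and 0 called falls in the authors' deposited table (6 and 1 at an unadjusted p under 0.05), with a median log2 ratio of 0.22. The share called higher was 27.8%, beside 20.6% of all tested genes, of which 4.35% were called lower. At the unadjusted p, 27.5% of all tested genes rose and 8.22% fell. The stress and growth factor responsive gene atf3 rose from 4.17 to 9.38 FPKM (2.25-fold, q = 0.000593 in the authors' deposited table). The AP-1 genes jund (3.47 to 6.20 FPKM, 1.79-fold) and jun (36.3 to 63.7 FPKM, 1.75-fold), the Krüppel-like factor gene klf2a (30.1 to 48.9 FPKM, 1.62-fold) and the myc family gene mych (451 to 578 FPKM, 1.28-fold) rose as well in the authors' deposited table. The ETS gene etv5b, an ERK target used as a readout of FGF signalling in this embryo, was at 169 FPKM in mock against 150.4 FPKM in Dcp2-DN embryos, and ier5 was at 230.4 and 263 FPKM, neither called in the authors' deposited table. Another immediate-early gene, egr1, had no test and was at 0.0675 and 0.0281 FPKM.

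Of 25 tested feedback regulators, 6 had a called rise and 1 a called fall in the authors' deposited table (10 and 1 at an unadjusted p under 0.05), with a median log2 ratio of 0.17. The share called higher was 24%, beside 20.6% of all tested genes, of which 4.35% were called lower. At the unadjusted p, 27.5% of all tested genes rose and 8.22% fell. The count of rises on the list was 2 at q under 0.01 and 2 with a minimum of 1.5-fold. Of all tested genes, 13.5% and 11.9% rose under these rules. errfi1, whose product binds and inhibits the ErbB kinase domain, rose from 2.85 to 4.49 FPKM (1.58-fold, q = 0.0159 in the authors' deposited table). lrig1, for a transmembrane protein that promotes ErbB receptor degradation in mammals, rose from 10.5 to 13.5 FPKM (1.29-fold), while LRIG3 of the same family fell from 8.42 to 6.14 FPKM (0.729 times the mock value, q = 0.00942, locus shared with 1 other row), both by the authors' deposited table. socs5a (10.5 to 17.4 FPKM, 1.65-fold), for a suppressor of cytokine signalling, sh3kbp1 (12.3 to 16.3 FPKM, 1.33-fold), for a CBL-interacting endocytic adaptor, and the MAP kinase phosphatase genes dusp1 (277 to 362 FPKM, 1.31-fold) and dusp4 (81.9 to 102 FPKM, 1.24-fold) rose in the authors' deposited table. dusp6, the ERK phosphatase gene induced by ERK itself, was at 144 and 141 FPKM, and lrig2 was at 49.6 and 38.2 FPKM, neither called in the authors' deposited table.

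Markers of the tissues in the embryo give the setting of these values. The 7 gastrula markers found lay between 65.0 and 314 FPKM in mock embryos, with 2 called higher (flh and gsc) and 2 lower (chd and eve1) by the authors' deposited table. Markers of later tissues reached no more than 1.33 FPKM, with both hbae1 rows at 0 in both groups. Enveloping layer markers, of the outer epithelium, fell in 8 of 15 tested and rose in 0 in the authors' deposited table. With an unadjusted p under 0.05 in the authors' deposited table, 10 fell and 0 rose. Their summed level was 4839 FPKM in mock against 3902 FPKM in Dcp2-DN embryos. Of 8 tested yolk syncytial layer markers, 1 rose and 2 fell in the authors' deposited table, at sums of 1041 and 1038 FPKM. The rise was mxtx2, from 35.8 to 93.6 FPKM (2.62-fold). The falls were apoa1a, from 46.7 to 35.3 FPKM, and apoc1l, from 339 to 282 FPKM. Among all tested genes, 20.6% rose and 4.35% fell by the call, and 27.5% and 8.22% at the unadjusted p. The part of the enveloping layer in the ligand values was not tested. The symbol dcp2 was on 2 rows, one at 13.9 and 16.7 FPKM and the other at 0.0398 FPKM in mock against 212 FPKM in Dcp2-DN embryos, neither of them called in the authors' deposited table. The latter row differed 5321-fold at q = 0.303 in the authors' deposited table, so a missing call does not mean an equal level.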

How the data were processed

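Total RNA of whole AB embryos was sequenced from stranded, ribosomal RNA depleted libraries, per the labels' protocols. The submitters' processing notes name TopHat 1.4.0, Cuffdiff 2.1.1 and the Zv9 (danRer7) build. The annotation, the use of strand in counting and the scaling of libraries are not given in the sources used. Each row holds 1 FPKM value for mock and 1 for Dcp2-DN, as deposited, with the p-value and q-value of the authors' Cuffdiff comparison, per the file headers. Depth is unknown. Single libraries were not analysed here, which leaves no error within a group and no model of counts.

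The table's mockB and DCP2 columns were matched to mock and Dcp2-DN by the titles. Its log2 fold column holds cells that are not numbers, so log2 ratios were recomputed with a pseudocount of 0.1 FPKM, which understates changes of low genes. Folds are ratios of FPKM without a pseudocount. Of 32571 rows, 14810 had a test. Of the 14 members, 9 had a gene ID in the name table used. Those of btc, erbb4b and the EGFR copies were not in it. Coordinates are locus spans on Zv9 as deposited, and whether starts count from 0 was not given. Genes with shared loci or close copies are uncertain.

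The members and lists were chosen with earlier results of these data known. Named were all members, per list up to 8 called genes by absolute log2 ratio and the 2 genes without a call with the highest mean, the 3 genes most like hbegfa, and dcp2. One gene that this rule takes is not reported here. The rows adam17a, adam17b, nrg2b, egr1, AREGB, the ERBB4 copies and the called gastrula and yolk syncytial layer markers were named after their values were seen. Alternatives were other pseudocounts, centring, q under 0.01, an unadjusted p under 0.05, a fold minimum of 1.5, and a mean of at least 1 FPKM, with backgrounds by level and locus span and a count without shared loci added after seeing the data. The computation of counts and medians was checked on the mock values with folds and calls planted by hand. This checks the arithmetic alone. Python 3.11.15, NumPy 2.4.6, pandas 2.3.3 and matplotlib 3.10.9 were used.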

Additional observations from a re-analysis of the deposited data

How the results depend on the processing

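No paired analysis was possible because each group has 1 deposited value per gene, and for the same reason no replicate could be left out. The log2 ratio of hbegfa was 2.67 with a pseudocount of 0.1 FPKM, 2.15 with 1 FPKM, 2.74 with 0.01 FPKM, and 2.56 after subtracting the median of 0.12 over genes whose mean reached 1 FPKM. Of 45 single genes recomputed under these 3 alternatives, the 25 called ones kept their sign. This outcome was fixed in advance, because a pseudocount cannot change a sign. The centring shift of 0.12 is also smaller than the smallest called rise among them, nras at 0.29. After centring, the genes without a call cd9b (-0.0080), crk (-0.086), grb2b (-0.030) and rps6ka3a (-0.042) took the other sign, as did the median of the shedding list (-0.050), by construction of a shift of 0.12. Among 10 tested members, 5 were called higher in the authors' deposited table, and 4 at q under 0.01. The shares of all tested genes under these rules were 20.6% and 13.5%. Both member counts include hbegfa, which was chosen for its rise. Without it, 4 of 9 tested members were called higher and 1 lower by the main rule. The single fall, erbb2, was lost with a fold minimum of 1.5 (0 called lower), because its change is smaller. It was also lost in the count of loci not shared with another gene (0), because its locus is shared. Falls made up 4.35% of all tested genes, and 0.885% with the fold minimum. Of 89 tested genes on the 6 lists around the receptors, the authors' deposited table held 18 called rises (20.2%) and 1 called fall. These stand beside 20.6% and 4.35% of all tested genes. At q under 0.01 the count higher was 10 (13.5% of all tested genes passed), at an unadjusted p under 0.05 the counts were 28 higher and 3 lower (27.5% and 8.22% of all), and with a fold minimum of 1.5 they were 12 higher and 0 lower (11.9% and 0.885% of all).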
